A study of Mus musculus with 15 samples.

Results

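The genes named Zfp followed by a number are a naming family of mouse zinc finger genes, and 281 of the 379 that the tables list, among 34432 genes in all, were studied here. A gene was a member when its mean over the 3 vehicle libraries was at least 200 normalized counts, which are reads per gene divided by a size factor for the depth of the library. RNA was from CT26, a mouse colon carcinoma line, in 2 experiments of 3 libraries per group. In the knockdown experiment, cells carried a control hairpin (shControl) or a doxycycline-inducible hairpin against Prmt1 (shPrmt1), the main enzyme for asymmetric dimethylation of arginine. The shPrmt1 cells had been given doxycycline for 3 days, and whether the shControl cells received doxycycline is not given in the labels. In the inhibitor experiment, wild-type CT26 cells received vehicle, MS023, an inhibitor of type I arginine methyltransferases, or GSK3368715, another inhibitor of that class, each at 6 µM for 48 hours. The labels do not say whether libraries of a group came from separate cultures, so p-values measure the spread between these libraries only.

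Most proteins of this family carry C2H2 zinc fingers, short loops in which a pair of cysteines and a pair of histidines hold a zinc ion and side chains of the loop contact DNA. In many of them a KRAB box, often near the start of the protein, recruits the corepressor TRIM28, which brings SETDB1 and heterochromatin protein to the bound site, and transposable elements are the best known targets. KRAB zinc finger genes lie in large clusters that grew by duplication, so that neighbours are often close in sequence. Other genes with a Zfp name are unrelated in function, such as Zfp36, which has fingers of another type and whose product binds AU-rich elements and promotes mRNA decay.

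The structure of the members was read from the longest coding transcript of each gene in the mm10 annotation. All 281 members matched the annotation, 279 were protein coding and 2, Zfp125 and Zfp939, were transcribed pseudogenes. A KRAB box was found in 170 members and not in 109. The number of C2H2 fingers ran from 0 to 36 with a median of 11, and 256 members had 3 or more. Members with a KRAB box had a median of 12 fingers and those without a median of 7. Of the 6 members with no match to the finger pattern, Zfp36 has fingers of another type. Stretches of coding sequence show the feature that names the family, from a finger joined to the next by the common linker in a member that was higher and a member that was lower in all 3 comparisons described below. Capitals mark the codons of the 2 cysteines and 2 histidines. The stretch of Zfp160 is chr17:21025799-21025879 on the plus strand and that of Zfp213 is chr17:23557921-23558001 on the minus strand, each within 1 coding exon.
Zfp160 finger: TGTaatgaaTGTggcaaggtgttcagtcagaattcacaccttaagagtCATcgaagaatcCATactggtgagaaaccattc
Zfp213 finger: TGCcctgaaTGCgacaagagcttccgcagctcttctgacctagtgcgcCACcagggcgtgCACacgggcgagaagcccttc

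Zfp160 had 12 fingers followed by that linker and Zfp213 had 2. The KRAB A box of Zfp213 lies within 1 coding exon, at chr17:23559411-23559518 on the minus strand, and is printed with no part in capitals.
Zfp213 KRAB A box: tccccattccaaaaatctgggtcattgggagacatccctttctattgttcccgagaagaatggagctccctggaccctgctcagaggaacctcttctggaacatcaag

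Promoters of RefSeq on GRCm38.p6, from 250 bases before to 50 after a start, were at hand for 230 members (278 promoters). Letters CCGGAAG, an ETS-type motif, were in 20.9% of the member promoters and in 8.86% of all 32851 promoters of that length, counting both strands. Letters CCAAT were in 51.1% of member promoters and in 37.4% of all promoters. For CCAAT the share was 60.2% in promoters of members with a KRAB box and 35.2% in those without, while TATAAA was in 6.83% of member promoters against 13.6% of all. The NRF1-type motif was in 3.96% of member promoters and in 0.971% of all. The median member promoter held 13.5 CG dinucleotides, and the median of all promoters was 7. That median was 10 for members with a KRAB box and 21 for those without. All promoters were taken whatever the level of their gene, while members were chosen for their level. These contrasts with all promoters are therefore not shown to be traits of the family. The 250 bases before the start are shown for the 4 members with a RefSeq promoter that were called in all 3 comparisons, with matches to any of 10 motifs in capitals (the ETS-type letters CCGGAAG, the NRF1-type motif, the E box CACGTG, the CCAAT box, the E2F-type letters TTTGGCGC or TTTCCCGC, the CRE letters TGACGTCA, the YY1-type letters AAGATGGC, the letters ACTACAA and the TATA letters TATAAA, each on both strands). The promoters are at chr17:21008691-21008940 (plus), chr13:67360573-67360822 (minus), chr17:23564227-23564476 (minus) and chr17:33628842-33629091 (plus) in the order printed. These matches are of letters only and were not tested for binding.
Zfp160 promoter: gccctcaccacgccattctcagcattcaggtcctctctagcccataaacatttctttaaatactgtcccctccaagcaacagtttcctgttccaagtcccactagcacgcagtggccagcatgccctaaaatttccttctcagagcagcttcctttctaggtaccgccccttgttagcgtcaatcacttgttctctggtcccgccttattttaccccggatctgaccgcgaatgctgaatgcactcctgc
Zfp953 promoter: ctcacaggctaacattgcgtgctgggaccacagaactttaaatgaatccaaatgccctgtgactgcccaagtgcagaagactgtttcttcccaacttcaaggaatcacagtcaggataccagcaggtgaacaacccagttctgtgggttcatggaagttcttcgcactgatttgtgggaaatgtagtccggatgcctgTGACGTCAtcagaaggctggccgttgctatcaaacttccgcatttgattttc
Zfp213 promoter: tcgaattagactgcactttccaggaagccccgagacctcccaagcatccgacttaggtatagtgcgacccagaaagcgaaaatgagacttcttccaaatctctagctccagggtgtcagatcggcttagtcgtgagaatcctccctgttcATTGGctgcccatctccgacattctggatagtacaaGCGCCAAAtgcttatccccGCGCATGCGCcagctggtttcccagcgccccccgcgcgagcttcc
Zfp414 promoter: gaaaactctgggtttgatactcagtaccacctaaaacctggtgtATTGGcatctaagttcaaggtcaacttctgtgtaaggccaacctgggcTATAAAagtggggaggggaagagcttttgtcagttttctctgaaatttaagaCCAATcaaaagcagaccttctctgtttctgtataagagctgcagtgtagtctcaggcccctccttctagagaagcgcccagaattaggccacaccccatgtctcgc

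No motif of the 10 was in the stretch of Zfp160. Zfp953 held TGACGTCA, Zfp213 held the CCAAT box, an E2F-type match and the NRF1-type motif, and Zfp414 held 2 matches to CCAAT and a TATAAA. The 4 promoters did not share a motif.

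Members were selected on their level in the vehicle libraries, which is therefore given as a description. Vehicle means ran from 204 to 24302 normalized counts, with a median of 1115. The 3 members just inside the threshold were Zfp712, Zfp941 and Zfp273, with means of 204, 206 and 208. The 3 genes just outside it were Zfp619, Zfp691 and Zfp128, with means of 193, 183 and 182. The 3 highest means were those of Zfp106, an RNA-binding protein, at 24302 ± 5664 (SD, n = 3), of Zfp91, an atypical ubiquitin ligase, at 16918 ± 369, and of Zfp207, a protein of the mitotic spindle, at 12435 ± 657. Per kilobase of exon, Zfp706 at 2351 and Zfp106 at 2330 normalized counts were the highest, followed by Zfp598 at 2120, a ubiquitin ligase of collided ribosomes, Zfp131 at 1965 and Zfp207 at 1868. The vehicle libraries of Zfp106 spread from 18173 to 29342, so its place next to Zfp706 and Zfp598 is within the spread. Members with a KRAB box had a median of 202 normalized counts per kilobase of exon, below the 303 of members without.

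Depth was 17284091 to 29233738 reads on genes per library in the knockdown experiment and 40119305 to 93697833 in the inhibitor experiment. Prmt1 fell from 5601 to 5717 normalized counts in shControl to 669 to 761 in shPrmt1, and with the inhibitors its mean was 14826 (MS023) and 15489 (GSK3368715) against 15611 with vehicle. Of 7 epithelial markers, Epcam was at 0 in every library and Cdh1, Vil1 and Krt19 had group means under 10 normalized counts, while Krt18 was expressed. Krt18 was called lower with shPrmt1, at -0.41 (adjusted p = 0.031). It was called higher with MS023, at 0.55 (adjusted p = 0.00069), and with GSK3368715, at 0.27 (adjusted p = 0.049). Krt8, at a mean of 7.43 with vehicle, was called higher with MS023 only, at 1.83 (adjusted p = 0.033). Cdx2 and the endothelial marker Pecam1 were not called where tested. Of the leukocyte markers Cd3e was at 0 in every library and Cd68 was the only marker above a mean of 10. Of 4 fibroblast markers, Pdgfrb was called higher in all 3 comparisons, at 0.69 on the log2 scale with shPrmt1 (adjusted p = 0.0027), 0.40 with MS023 (adjusted p = 0.018) and 0.64 with GSK3368715 (adjusted p = 0.0056). Col1a1 was called higher with shPrmt1, at 0.97 (adjusted p = 0.0082), and lower with MS023, at -0.52 (adjusted p = 0.0032), and at -0.11 with GSK3368715 it was not called. Pdgfra and Dcn were not called where tested, at 0.41 and 0.57 with MS023. The summed normalized count of the fibroblast markers, most of it from Col1a1, was 2340 to 2974 in shControl, 3645 to 5530 in shPrmt1, 20970 to 21602 with vehicle, 14082 to 18402 with MS023 and 20402 to 22840 with GSK3368715. That of the epithelial markers, nearly all from Krt18, was 564 to 618, 388 to 471, 892 to 1047, 1346 to 1460 and 1105 to 1243 in the same order. Their part in the Zfp values was not tested.

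Members were compared with the control group of their own table by limma on log2(normalized count + 1), and a member is called when its adjusted p over all genes tested is under 0.05. All 281 passed the filter on low values in both tables, which the vehicle threshold made likely. With shPrmt1, 18 members were called, 10 higher and 8 lower, which is 6.41% of the members, where 14.7% of all 11485 genes tested were called. With MS023, 53 were called, 38 higher and 15 lower, or 18.9% against 27.9% of 13014 genes. With GSK3368715, 20 were called, 16 higher and 4 lower, or 7.12% against 9.64%. Members were called less often than genes at large in each comparison, and the difference was not tested. Their changes were small, since the largest called change was 0.74 on the log2 scale and no called member reached 1. In all, 66 members were called in at least 1 of the 3 comparisons and 215 in none. The matching counts over all genes are not given here, so these 66 and 215 are not read as a trait of the members. By non-overlap of the 3 treated and 3 control libraries, 29.5% of the members were apart with shPrmt1 (56 higher, 27 lower), 38.1% with MS023 (75 and 32) and 25.3% with GSK3368715 (57 and 14), and of all genes 38.0%, 44.5% and 27.7% were. Both inhibitor comparisons share the vehicle libraries that chose the members.

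**Figure D1:**
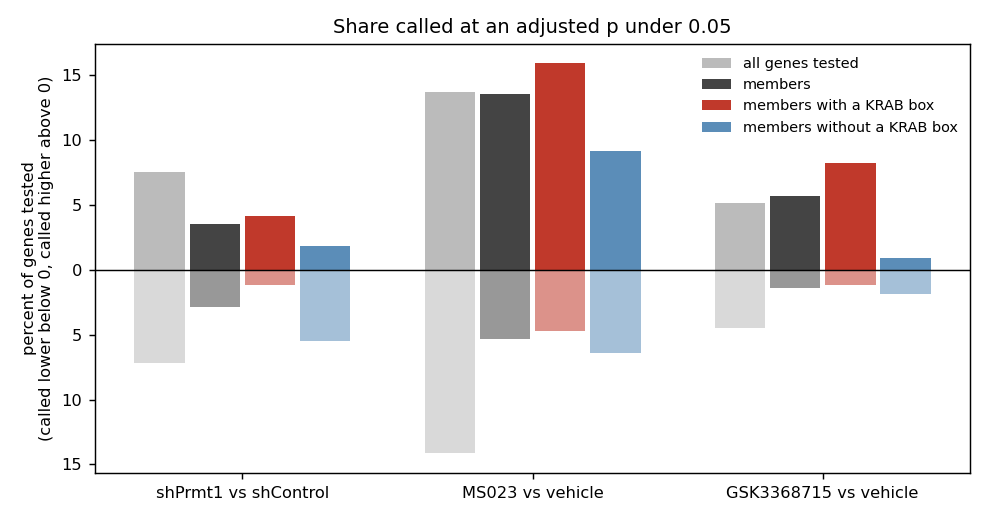
Percent of genes called at an adjusted p under 0.05 (y axis), higher above the zero line and lower below it, in each comparison, for all genes tested, the 281 members, and the members with (170) and without (109) a KRAB box. Members as a whole were called less often than all genes, with shares of 6.41%, 18.9% and 7.12% against 14.7%, 27.9% and 9.64%.

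Among the calls the balance leaned to higher values with both inhibitors, while with shPrmt1 higher and lower calls were near balance. With MS023, 13.5% of members were called higher, close to the 13.7% of all genes, and 5.34% were called lower, against 14.1% of all genes. With GSK3368715, 5.69% of members were called higher and 1.42% lower, where all genes gave 5.16% and 4.47%. With shPrmt1, 3.56% were called higher and 2.85% lower, where all genes gave 7.5% and 7.17%. Over called and uncalled members alike, 175 of 281 were above 0 with shPrmt1, 170 with MS023 and 179 with GSK3368715, and the share of all genes above 0 was 49.4%, 50.5% and 50.1%. The medians over members were 0.08, 0.04 and 0.06 on the log2 scale, and those over all genes were -0.00, 0.00 and 0.00. With libraries scaled to the same total in place of size factors, the calls were 17 higher and 6 lower with shPrmt1, 50 and 10 with MS023, and 18 and 2 with GSK3368715. That scaling moved all genes upward too, to medians of 0.03, 0.04 and 0.02. Calls over all genes were then 1082 higher and 666 lower of 11485, 2200 and 1509 of 13020, and 747 and 496 of 13020.

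The lean above 0 over called and uncalled members lay with the members that have a KRAB box. With shPrmt1, 121 of the 170 were above 0, with a median of 0.15, while 52 of the 109 members without a KRAB box were above 0, with a median of -0.01. With MS023 the counts were 114 of 170 (median 0.08) and 54 of 109 (median -0.01). With GSK3368715 they were 117 of 170 (median 0.09) and 60 of 109 (median 0.02). Called members with a KRAB box were 7 higher and 2 lower with shPrmt1, 27 and 8 with MS023, and 14 and 2 with GSK3368715. Called members without a KRAB box were 2 higher and 6 lower, 10 and 7, and 1 and 2, in the same order. As shares, 4.12%, 15.9% and 8.24% of KRAB members were called higher, against 7.5%, 13.7% and 5.16% of all genes. Called lower were 1.18%, 4.71% and 1.18% of them, against 7.17%, 14.1% and 4.47% of all genes. With shPrmt1, KRAB members were thus called higher less often than genes at large in the main fit. With the replicate number as a block, 23 of the 170 were called higher and 1346 of 11485 genes. That was a larger share of the KRAB members than of genes at large, so the order depended on the fit. The KRAB group has lower counts. In the range of 200 to 2000 normalized counts the medians were 0.16, 0.09 and 0.12 with a KRAB box (147 members) and -0.02, -0.00 and 0.02 without (60 members), and those of all genes tested in that range were -0.01, 0.03 and 0.00. At a vehicle mean of 2000 and over, the 23 members with a KRAB box had medians of 0.11, -0.04 and 0.02, with 18, 10 and 12 above 0, and the 49 without had medians of 0.02, -0.02 and 0.02, with 26, 24 and 28 above 0. With both inhibitors the lean was thus not seen among these higher members. The 60 KRAB zinc finger genes with other names and a vehicle mean of at least 200, which the membership rule did not use, had medians of 0.10, 0.08 and 0.12. Of these 35, 37 and 38 were above 0.

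**Figure D2:**
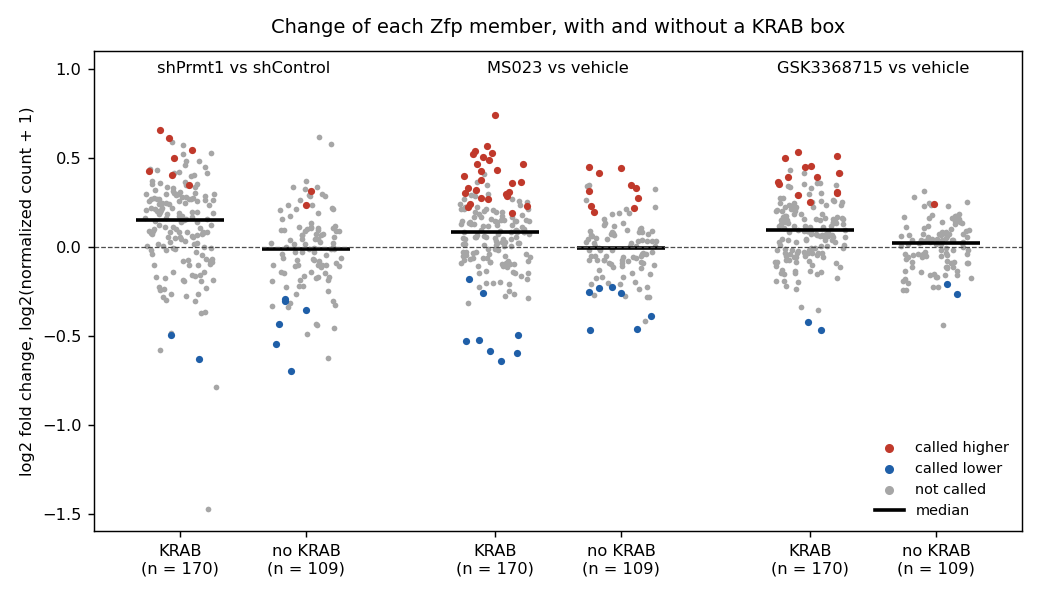
Log2 fold change of each member on the log2(normalized count + 1) scale (y axis) in the 3 comparisons, split by the presence of a KRAB box, with called members in red (higher) or blue (lower) and the median as a bar. The median with a KRAB box is 0.15, 0.08 and 0.09 and that without is -0.01, -0.01 and 0.02.

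By library the lean was uneven. The mean over the 170 KRAB members of the log2 level minus that of the shControl group was -0.04, 0.06 and -0.02 for shControl and 0.03, 0.27 and 0.03 for shPrmt1. The second shPrmt1 library stood well above the others, and the other two lay below the highest shControl library. Without shPrmt1 replicate 2 the median of the KRAB members fell to 0.08, with 106 of 170 above 0. In the inhibitor table the KRAB means were 0.00, -0.03 and 0.03 with vehicle, 0.10, 0.11 and 0.02 with MS023, and 0.08, 0.19 and 0.02 with GSK3368715. In each treated group the third library lay below the highest vehicle library. Without GSK3368715 replicate 2 the KRAB median with GSK3368715 was 0.05. For members without a KRAB box the library means stayed between -0.06 and 0.04 throughout.

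**Figure D3:**
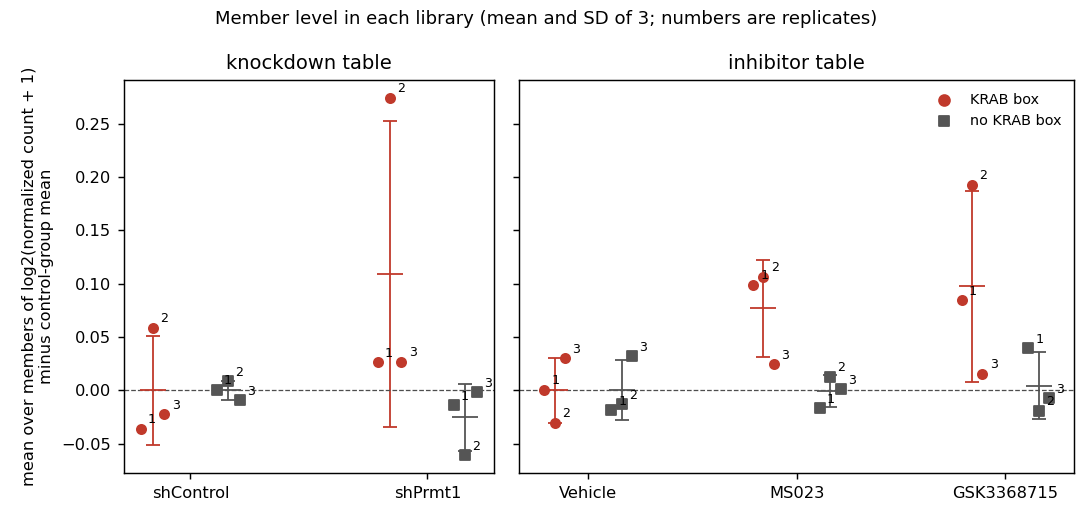
Mean over members of log2(normalized count + 1) minus the mean of the control group of that table (y axis) in each library, for members with (circles) and without (squares) a KRAB box; bars give the mean and SD of 3 libraries and the numbers are replicates. The second shPrmt1 library is at 0.27 for KRAB members while the other shPrmt1 libraries are at 0.03.

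In the same direction, 5 members were called in all 3 comparisons, namely Zfp160, Zfp953 and Zfp125 higher and Zfp213 and Zfp414 lower. The matching count over all genes is not given here. Zfp160 (chromosome 17, 21008903 to 21043070 of mm10, plus strand) encodes a KRAB protein with 18 fingers. It had 244, 297 and 259 normalized counts in shControl and 400, 481 and 383 in shPrmt1, with no overlap. With vehicle it had 869, 915 and 973, with MS023 1364, 1316 and 1240, and with GSK3368715 1310, 1309 and 1144, so that every treated library exceeded every vehicle library. Its log2 fold change was 0.66 ± 0.12 (SE, adjusted p = 0.010) with shPrmt1, 0.51 ± 0.08 (adjusted p = 0.0011) with MS023 and 0.45 ± 0.08 (adjusted p = 0.0069) with GSK3368715. The inhibitor calls of Zfp160 held in all 20 alternatives, and the knockdown call was lost without shControl replicate 1 (adjusted p = 0.053).

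Zfp953 (chromosome 13, 67339306 to 67360605, minus strand), a KRAB gene with 8 fingers, had 174, 199 and 176 normalized counts in shControl and 252, 322 and 235 in shPrmt1. Its values were 620, 608 and 610 with vehicle, 817, 925 and 807 with MS023, and 866, 1026 and 733 with GSK3368715. All treated libraries were above all their controls, and the second library of shPrmt1 and of GSK3368715 were the highest. The log2 fold changes were 0.54 ± 0.14 (adjusted p = 0.035), 0.47 ± 0.11 (adjusted p = 0.011) and 0.50 ± 0.11 (adjusted p = 0.021). Its knockdown call was lost without any of the 3 shControl libraries or without shPrmt1 replicate 1 (adjusted p from 0.059 to 0.13), its MS023 call without MS023 replicate 2 (adjusted p = 0.051), and its GSK3368715 call without GSK3368715 replicate 1 or 2 or Vehicle replicate 3 (adjusted p from 0.051 to 0.065). Over all alternatives these calls were lost in 5 of 16, 1 of 20 and 4 of 20.

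Zfp125 (chromosome 12, 20877084 to 20921262, minus strand) is annotated as a transcribed pseudogene, so its RNA is not known to give a protein. It had 197, 219 and 261 normalized counts in shControl and 340, 333 and 322 in shPrmt1. In the inhibitor table it had 705, 618 and 616 with vehicle, 870, 989 and 874 with MS023, and 870, 929 and 985 with GSK3368715, with no overlap of treated and vehicle libraries. Its log2 fold changes were 0.56 ± 0.12 (adjusted p = 0.017), 0.49 ± 0.09 (adjusted p = 0.0023) and 0.52 ± 0.09 (adjusted p = 0.0057), and its knockdown call was lost without shControl replicate 1 or 2 (adjusted p = 0.075 and 0.065). It shares 560 exon bases on the same strand with 3110053B16Rik, which was not called.

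Zfp213 (chromosome 17, 23556767 to 23564238, minus strand), with a KRAB box and 5 fingers, fell in every comparison. It had 129, 140 and 161 normalized counts in shControl and 93.7, 78.8 and 104 in shPrmt1. With vehicle it had 506, 446 and 511, with MS023 304, 337 and 326, and with GSK3368715 372, 359 and 358, again without overlap. The log2 fold changes were -0.63 ± 0.16 (adjusted p = 0.030), -0.60 ± 0.09 (adjusted p = 0.00099) and -0.42 ± 0.09 (adjusted p = 0.017). The knockdown call of Zfp213 was lost without any 1 of the shControl libraries or without shPrmt1 replicate 1 (adjusted p from 0.061 to 0.12), and the GSK3368715 call without Vehicle replicate 3 (adjusted p = 0.068). The knockdown call was also lost with no filter on low values.

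Zfp414 (chromosome 17, 33629090 to 33631779, plus strand) has 2 fingers and no KRAB box. It had 225, 239 and 253 normalized counts in shControl and 178, 160 and 194 in shPrmt1. Values were 940, 943 and 999 with vehicle, 675, 668 and 755 with MS023, and 821, 800 and 772 with GSK3368715. The treated libraries lay below all controls in each table. The log2 fold change was -0.43 ± 0.11 with shPrmt1 (adjusted p = 0.039), -0.46 ± 0.07 with MS023 (adjusted p = 0.0014) and -0.27 ± 0.07 with GSK3368715 (adjusted p = 0.045). The MS023 call held in all 20 alternatives, the knockdown call was lost without any library but shPrmt1 replicate 2 (adjusted p from 0.050 to 0.15), and the GSK3368715 call without any library but MS023 replicate 3 (adjusted p from 0.063 to 0.145). In all, the knockdown call was lost in 7 of 16 alternatives and the GSK3368715 call in 12 of 20.

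**Figure D4:**
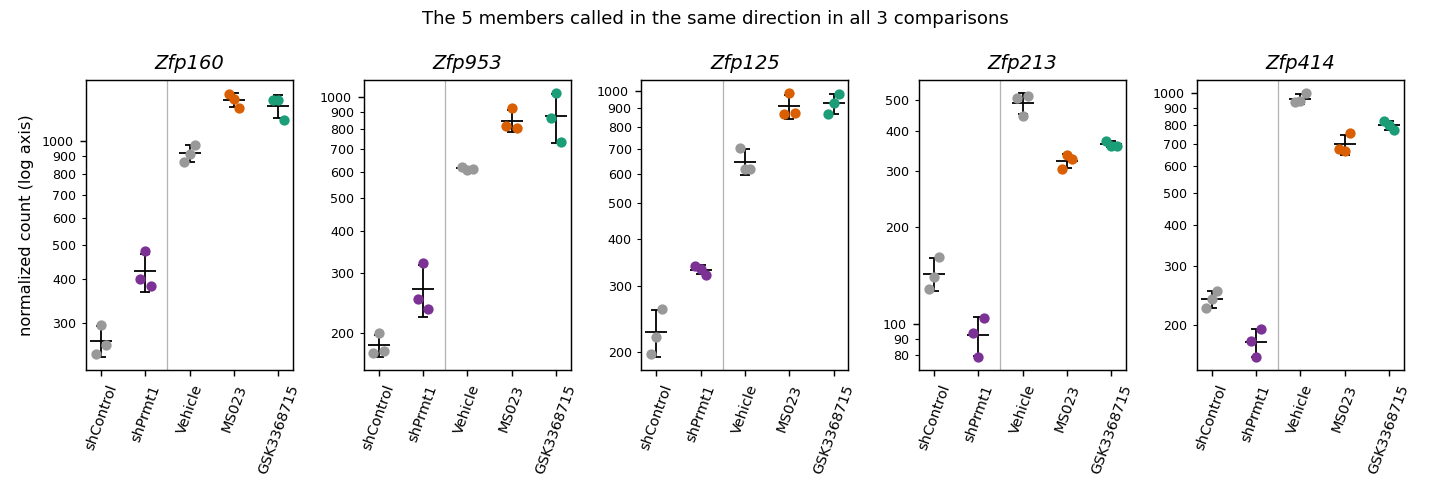
Normalized count (log axis, one scale per panel) of the 5 members called in the same direction in all 3 comparisons, with 1 point per library and the mean and SD of 3 as bars. Levels left and right of the vertical line come from tables normalized separately; Zfp160, Zfp953 and Zfp125 are higher and Zfp213 and Zfp414 lower than their own controls in every treated library.

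In the knockdown the largest called increases after Zfp160 were those of Zfp938, Zfp125, Zfp953 and Zfp952. Zfp938, a KRAB gene of chromosome 10, had 106, 107 and 114 normalized counts in shControl and 185, 173 and 145 in shPrmt1, a log2 fold change of 0.61 ± 0.13 (adjusted p = 0.019). With the inhibitors Zfp938 was at 0.06 (MS023) and 0.01 (GSK3368715), neither of them called. Zfp952, a KRAB gene of chromosome 17, had 155, 191 and 167 in shControl and 241, 252 and 230 in shPrmt1, a change of 0.50 ± 0.12 (adjusted p = 0.024), and was at 0.09 and 0.15 with the inhibitors. The shPrmt1 libraries of both genes were all above the shControl libraries. The call of Zfp938 was lost without any 1 shControl library or shPrmt1 replicate 1 (adjusted p from 0.058 to 0.080), and that of Zfp952 without shControl replicate 1 or 3 or shPrmt1 replicate 1 or 3 (adjusted p from 0.052 to 0.11).

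The largest called decreases in the knockdown were those of Zfp523, Zfp213, Zfp395, Zfp738 and Zfp414. Zfp523, the relative of Zfp143 known in human as ZNF76, had 306, 287 and 335 normalized counts in shControl and 213, 158 and 204 in shPrmt1. Its log2 fold change was -0.70 ± 0.14 (adjusted p = 0.013), the call being lost without shControl replicate 1 or 3 (adjusted p = 0.054 and 0.061). Zfp395 had 821, 906 and 841 in shControl and 633, 560 and 565 in shPrmt1, a change of -0.55 ± 0.08 (adjusted p = 0.0045). Zfp738, a KRAB gene with 20 fingers, had 929, 965 and 888 in shControl and 637, 629 and 708 in shPrmt1, a change of -0.50 ± 0.08 (adjusted p = 0.0056). Zfp395 and Zfp738 were the 2 of 18 knockdown calls that held in all 16 alternatives. Zfp738 was lower with MS023 too, at 2286, 2166 and 1865 against 2494, 3490 and 2966 with vehicle (-0.49 ± 0.13, adjusted p = 0.015, lost without MS023 replicate 3 at 0.064), and at -0.15 with GSK3368715 it was not called.

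Of the 10 members called higher in the knockdown, 3 were called higher with MS023 too, among 38 in all. Of the 8 called lower, 4 were called lower with MS023 too, among 15 in all, namely Zfp213, Zfp414, Zfp703 and Zfp738. No member was called in opposite directions in the knockdown and in either inhibitor. The matching overlaps over all genes are not given here, so these counts are not read as a trait of the members. Over the 281 members the knockdown and MS023 changes, which have separate controls, had a Pearson correlation of 0.50 across genes (Spearman 0.48), against 0.53 (0.46) over the 11471 genes tested in both. Members are not independent of each other, and the value is a description.

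The largest called increase with MS023 was that of Zfp966, a KRAB gene of chromosome 2, which had 1031, 976 and 1290 normalized counts with vehicle and 1843, 1940 and 1696 with MS023. Its log2 fold change was 0.74 ± 0.14 (adjusted p = 0.0036). Zfp968 and Zfp973, of the same chromosome, rose by 0.53 ± 0.12 (adjusted p = 0.0082) and 0.52 ± 0.12 (adjusted p = 0.0079). These are near-identical copies, together with Zfp967 and Zfp969, with 96.1% to 100% identity over the aligned bases, and the split of reads between them is uncertain. The summed count of Zfp968 and its copies changed by 0.67 with MS023, 0.36 with GSK3368715 and 0.29 with shPrmt1. Zfp970 rose from 709, 703 and 718 with vehicle to 1057, 1040 and 998 with MS023, by 0.54 ± 0.09 (adjusted p = 0.0021). Zfp40, a KRAB gene with 16 fingers, rose from 214, 213 and 218 to 356, 292 and 313, by 0.57 ± 0.13 (adjusted p = 0.0080). The MS023 calls of Zfp966, Zfp968, Zfp970, Zfp973 and Zfp40 held in all 20 alternatives, and none of the 5 was called with shPrmt1 or GSK3368715.

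The largest called decreases with MS023 were those of Zfp689, Zfp213, Zfp978, Zfp560 and Zfp688, all KRAB genes. Zfp689 went from 310, 286 and 369 normalized counts with vehicle to 197, 240 and 183, a log2 fold change of -0.64 ± 0.14 (adjusted p = 0.0059). Its neighbour Zfp688 on chromosome 7 went from 435, 320 and 439 to 274, 228 and 329, with overlap, by -0.52 ± 0.17 (adjusted p = 0.038). That call was lost without MS023 replicate 1 or 2 or Vehicle replicate 1 or 3 (adjusted p from 0.089 to 0.14). In all, it was lost in 9 of 20 alternatives. Zfp560 went from 675, 673 and 648 to 442, 520 and 424, by -0.53 ± 0.12 (adjusted p = 0.010). Zfp978 went from 511, 526 and 458 to 349, 338 and 309 with MS023, by -0.58 ± 0.09 (adjusted p = 0.0012), and to 355, 351 and 370 with GSK3368715, by -0.47 ± 0.09 (adjusted p = 0.012). Zfp978 is 95.6% identical to Zfp600 and Rex2 over most of its transcript, and the sum of the 3 changed by -0.30 and -0.31.

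With GSK3368715 the largest called increases were those of Zfp882, Zfp125, Zfp658, Zfp953 and Zfp873. Zfp882 had 335, 330 and 338 normalized counts with vehicle and 485, 587 and 397 with GSK3368715, a log2 fold change of 0.53 ± 0.13 (adjusted p = 0.028), lost without GSK3368715 replicate 1 or 2 or any Vehicle library (adjusted p from 0.051 to 0.076). Over all alternatives that call was lost in 7 of 20. Zfp658, a KRAB gene with 21 fingers, had 241, 243 and 261 with vehicle, 379, 363 and 323 with GSK3368715 (0.51 ± 0.10, adjusted p = 0.011) and 335, 371 and 339 with MS023 (0.49 ± 0.10, adjusted p = 0.0047). Its groups did not overlap, and both calls held in all 20 alternatives. Zfp873 rose by 0.45 ± 0.12 (adjusted p = 0.041), a call lost in 10 of 20 alternatives, among them those without GSK3368715 replicate 1, 2 or 3, MS023 replicate 2 or Vehicle replicate 1 or 3 (adjusted p from 0.065 to 0.12). Only 4 members were called lower, Zfp978, Zfp213, Zfp414 and Zfp131. Zfp131, which has a BTB domain, had 9038, 8621 and 9543 with vehicle and 7831, 8072 and 7650 with GSK3368715, a change of -0.21 ± 0.06 (adjusted p = 0.043) that was not called in 13 of 20 alternatives, among them those without any 1 of the GSK3368715 libraries, MS023 replicate 1 or 2, or Vehicle replicate 1 or 3 (adjusted p from 0.060 to 0.15).

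The inhibitors were given at the same dose and time, and their direct difference was tested for each of the 281 members. None was called, where 0.515% of all genes were. An unadjusted p under 0.05 was seen for 16 of the 281 members and for 1722 of all 13014 genes, a larger share. DESeq2 on the recovered reads called 1, Zfp180, with MS023 minus GSK3368715 at -0.19 on the log2 scale (adjusted p = 0.034; named after its value was seen), and edgeR called 0. The differences ran from -0.38 to 0.38 with a median half-width of the 95% interval of 0.20, and for 257 members the interval lay within 0.5 of 0. Calls with MS023 alone therefore do not show a difference between the compounds. For Zfp966, the log2 fold change was 0.74 with MS023 and 0.36 with GSK3368715, and for Zfp560 it was -0.53 and -0.15.

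Members of known function were read whatever their values. Zfp809, a KRAB protein that silences retroviruses through their primer-binding site, had 500, 486 and 487 normalized counts in shControl and 610, 735 and 613 in shPrmt1, a log2 fold change of 0.41 ± 0.09 (adjusted p = 0.024). That call was lost without any 1 of the shControl libraries (adjusted p from 0.080 to 0.092). With the inhibitors Zfp809 was at 0.15 (adjusted p = 0.084) and 0.18 (adjusted p = 0.075), not called, with all treated libraries above all vehicle libraries. Zfp36 rose by 0.22 ± 0.07 with MS023 (adjusted p = 0.035), from 739, 701 and 747 to 842, 864 and 838, a call lost without any 1 of the MS023 or Vehicle libraries (adjusted p from 0.054 to 0.11). Over all alternatives the call of Zfp36 was lost in 8 of 20. Zfp57, a KRAB protein that keeps imprints, was at -0.07, -0.16 and -0.35 in the 3 comparisons and was not called, with vehicle libraries spread from 1798 to 2660. The transcription factors Zfp143 and Zfp281 and the spindle protein Zfp207 had changes of 0.07, 0.08 and 0.08, of 0.13, -0.03 and 0.07, and of 0.02, 0.00 and -0.05, none called. Zfp91 rose with shPrmt1 by 0.24 ± 0.06 (adjusted p = 0.025), from 6264, 6118 and 6063 to 7033, 7600 and 7133. Zfp91 lost that call without any 1 shControl library or shPrmt1 replicate 3 (adjusted p from 0.065 to 0.12) and was at 0.04 with each inhibitor. Over all alternatives its knockdown call was lost in 5 of 16.

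The corepressor list held 28 genes of the machinery that KRAB proteins recruit and of heterochromatin. With shPrmt1, 0 were called higher and 2 lower, Cbx5, which encodes heterochromatin protein 1 alpha, by -0.27 (adjusted p = 0.013) and Ehmt1, a histone methyltransferase, by -0.37 (adjusted p = 0.034). With MS023, 3 were called higher and 1 lower. Hdac1 was at 0.30 (adjusted p = 0.0011), Daxx at 0.23 (adjusted p = 0.021), Chd3 at 0.22 (adjusted p = 0.038) and Cbx3 at -0.26 (adjusted p = 0.016). With GSK3368715, Hdac1 (0.28, adjusted p = 0.0054) and Daxx (0.37, adjusted p = 0.0069) were called higher. In all, 7.14%, 14.3% and 7.14% of the list were called, less often than the 14.7%, 27.9% and 9.64% of all genes, a difference that was not tested. The list's medians were 0.04, 0.06 and 0.06, against about 0 over all genes. Trim28, the central corepressor, was at 0.07, 0.18 and 0.12 and Setdb1 at 0.03, 0.04 and -0.02, with none of these called.

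Members lay on 20 chromosomes, with 170 of the 281 on chromosomes 2, 4, 7, 13 and 17. Taking members less than 500000 bases apart as neighbours, 105 fell into 10 clusters of 6 or more. In the largest, on chromosome 17 from 21008903 to 23564238 of mm10 (21 members, Zfp160 to Zfp213, all with a KRAB box), 20 members were above 0 with shPrmt1 and 18 with each inhibitor, with medians of 0.27, 0.20 and 0.16. The exception in all 3 comparisons included Zfp213 at its end, one of the called decreases. By library the mean over this cluster minus control was 0.19, 0.45 and 0.10 in shPrmt1 against -0.06, 0.08 and -0.02 in shControl, without overlap. It was 0.21, 0.25 and 0.08 with MS023 against 0.00, -0.06 and 0.06 with vehicle, also without overlap, and 0.14, 0.32 and 0.01 with GSK3368715, with overlap. Of the 21, 1 was called higher with shPrmt1, 5 with MS023 and 2 with GSK3368715, and Zfp213 was called lower in each, where 7.5%, 13.7% and 5.16% of all genes were called higher and 7.17%, 14.1% and 4.47% lower.

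Both chromosome 4 clusters, with 6 and 8 KRAB members, had medians of 0.41 and 0.37 with shPrmt1, 0.03 and 0.09 with MS023, and -0.04 and 0.05 with GSK3368715. They hold near-identical copies, such as Zfp991 and Zfp992 (99.3% identity) and Zfp978 and Zfp600 (95.6%), so these members are not separate measurements. In the cluster of 6, library means were 0.02, 0.59 and 0.24 in shPrmt1 against -0.11, 0.23 and -0.12 in shControl, with overlap, and none was called with shPrmt1. In the cluster of 8, the library means in shPrmt1 were 0.03, 0.56 and 0.08, so that the second library held most of the rise, and 1 member, Zfp982, was called. The cluster of chromosome 13 (14 KRAB members) had medians of 0.21, 0.05 and 0.19, with a mean of 0.39 in shPrmt1 replicate 2 against -0.01 and 0.02 in the others. On chromosome 7 the cluster of 10 from Zfp180 to Zfp526, 5 of them with a KRAB box, had a median of -0.19 with shPrmt1, with 2 of 10 above 0 and none called. Its library means were -0.13, -0.17 and -0.14 in shPrmt1 against -0.06, -0.04 and 0.10 in shControl, and its medians with the inhibitors were -0.01 and 0.03. KRAB members of chromosome 17 as a whole were above 0 in 31, 29 and 29 of 34 cases, and those of chromosome 7 in 22, 24 and 26 of 39. The clusters were defined after the values were seen and their medians were not tested.

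**Figure D5:**
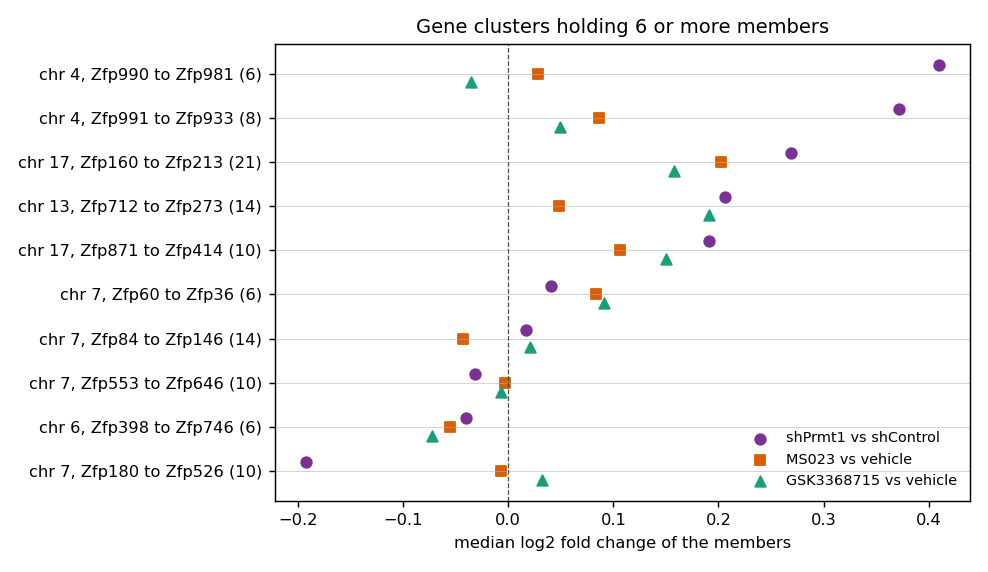
Median log2 fold change of the members (x axis) in each of the 10 clusters that hold 6 or more members, named by chromosome and by the first and last member with the number of members, in the 3 comparisons. The clusters of chromosomes 4, 13 and 17 lie to the right of 0 with shPrmt1, from 0.19 to 0.41, and those of chromosomes 6 and 7 lie between -0.19 and 0.04.

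By the number of fingers, the 158 members with 10 or more had medians of 0.14, 0.08 and 0.09, the 98 with 3 to 9 had 0.02, 0.01 and 0.02, and the 23 with fewer than 3 had -0.03, -0.08 and -0.05. Of the 23, 0 were called higher and 4 lower with shPrmt1 (Zfp395, Zfp414, Zfp608 and Zfp703), 2 higher and 4 lower with MS023, and 1 higher and 1 lower with GSK3368715. The called-lower shares were 17.4%, 17.4% and 4.35%, against 7.17%, 14.1% and 4.47% of all genes. Across the 279 translated members the Spearman correlation of change and finger number was 0.23 with shPrmt1, 0.25 with MS023 and 0.30 with GSK3368715, given as a description, since KRAB members also have more fingers. Changes and log2 vehicle level correlated at -0.05, -0.18 and -0.19.

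Near-identical copies at 95% identity or more were found for 21 members and shared exon bases with another gene for 43. The largest change of any member, -1.47 with shPrmt1 for Zfp82, was not called and is of this kind. Zfp82 was singled out after its value was seen. It shares exons with Gm26920, and the sum of both changed by 0.07.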

How the data were processed

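Members and lists were chosen with earlier results of these data known. Per the labels and the study's methods, paired-end reads were quantified by the authors with Salmon 1.4.0 on mm10, and the authors deposited a normalized signal, each count over the DESeq2 size factor of its library, made separately for the knockdown and inhibitor tables. Multiplying back gave whole reads in 100% of cases (tolerance 0.01). The authors' comparison columns, which hold fold changes and p-values, were not used.

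A gene entered the fit of a table when 3 or more of its libraries reached 10 normalized counts, and was tested by limma 3.58.1 (lmFit, eBayes with a trend, two-sided) in R 4.3.3 on log2(value + 1), with Benjamini-Hochberg adjustment over all genes tested and a threshold of 0.05. A pseudocount understates the change of low genes. The knockdown table was fitted as 6 libraries and the inhibitor table as 9, so all inhibitor contrasts share a spread. On simulated counts limma recovered 86 of 100 genes changed 1.5-fold in the knockdown and 86 of 100 in the MS023 comparison. The simulation gave every gene the same assumed spread, changed only well-covered genes and held only the groups compared. These shares are therefore not the power of the tests on the real libraries. edgeR 4.0.16 and DESeq2 1.42.0 on the recovered reads, other filters, pseudocounts, scalings and membership thresholds, a replicate block and leaving out each library were alternatives.

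Fingers were counted in translated GENCODE coding sequences as C-(2 to 4)-C-(12)-H-(3 to 5)-H. KRAB boxes were found with pyhmmer 0.12.3 by a profile of 89 seed windows of 44 residues (E of at most 0.001), so a diverged box may be missed. Copies were searched with BLAST+ 2.17.0 (95% identity over at least 30% of the transcript). Named members were those with the 5 largest called changes in each direction per control comparison, those called in all 3 comparisons, the highest and threshold levels, and 6 of known function; called genes of the corepressor list were named too. Zfp706, Zfp598, Zfp82 and Zfp180 were named after their values were seen.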

Additional observations from a re-analysis of the deposited data

Results flagged for a closer look

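Zfp395 was lower in every shPrmt1 library than in every shControl library, with a log2 fold change of -0.55 ± 0.08 (limma, adjusted p = 0.0045), and higher in every MS023 library (3288, 3409 and 3698 normalized counts) than in every vehicle library (2778, 3208 and 2921). The MS023 change was 0.22 ± 0.09 (adjusted p = 0.095) and was not called. What drew attention is the opposite direction in the 2 experiments, and the difference between them was not tested.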

How the results depend on the processing

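Counts of called members moved more than medians. For the knockdown the 18 calls were 28 with DESeq2 (19 higher, 9 lower), 44 with the replicate number as a block (31 higher, 13 lower) and 2 to 26 with 1 library left out, the low end being 2, 5 and 4 without shControl replicate 1, 2 and 3. For MS023 the 53 calls were 24 to 58 with 1 library left out. For GSK3368715 the 20 calls were 9 with no filter, 5 with only the groups compared in the fit, 10 with the replicate number as a block and 5 to 18 with 1 library left out. For MS023 against GSK3368715 the count was 0, or 1 with DESeq2. Calls over all genes moved as well. In the knockdown they went from 861 higher and 823 lower of 11485 to 1099 and 1052 with DESeq2. They were 1346 and 1325 with the block, and 370 and 282 of 11405 without shControl replicate 1. For GSK3368715 they went from 672 higher and 582 lower of 13014 to 306 and 291 of 12751 with only the groups compared. The cause was not tested. Of the main calls, 2 of 18 (Zfp395, Zfp738), 21 of 53 and 4 of 20 (Zfp125, Zfp160, Zfp658, Zfp978) were called in every alternative run. The matching shares over all genes are not given here. The medians of the members stayed above 0 in all alternatives of the 3 control comparisons, at 0.04 to 0.11, 0.03 to 0.07 and 0.04 to 0.08 with 1 library left out, and that of MS023 against GSK3368715 ran from -0.04 to 0.00. The difference of the KRAB and no KRAB medians, an alternative added after the data were seen, ran from 0.07 to 0.24, 0.08 to 0.12 and 0.03 to 0.12 with 1 library left out.

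Same-numbered libraries did not all correlate over 0.1, and the main fits did not take the numbers as pairing. In the knockdown these correlations were 0.06, 0.12 and 0.08, and each library correlated best with its own number. Such values do not settle whether the knockdown libraries were paired, and the counts with the block are given above. Signs turned, with none of these values called, for Zfp281 (0.0047) with MS023 and Zfp970 (0.025) with shPrmt1 at the same total, and with 1 library left out for Zfp40 (-0.065 to 0.38), Zfp207 (-0.032 to 0.061), Zfp873 (-0.12 to 0.42) and Zfp970 (-0.11 to 0.073) with shPrmt1, Zfp207 (-0.046 to 0.042), Zfp281 (-0.11 to 0.029) and Zfp938 (-0.049 to 0.15) with MS023, and Zfp281 (-0.011 to 0.13), Zfp395 (-0.0021 to 0.17) and Zfp938 (-0.11 to 0.11) with GSK3368715. Depth was lower in the knockdown table, and groups of 3 limit every call.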
